A study of Mus musculus with 4 samples.

Results

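A set of 43 genes of differentiating neurons, called pan-neuronal here, was followed across 4 sorted populations of mouse cells. They came from embryonic stem cell culture and from the fetal ventral midbrain. Of the 43, 42 were measured, among 19938 genes in all. The 43 genes were chosen by name, with earlier results of these data known, and fall into 4 classes. There were 14 genes of the neuronal cytoskeleton and growth cone, 9 RNA-binding proteins, 10 synaptic or secretory proteins and 10 transcription factors of differentiating neurons. The synaptic vesicle protein gene Vamp2 was the gene without a value, because its only transcript cluster carries the names of several genes. A transcript cluster is the group of probes on the array that reports 1 transcript, and each gene was represented by its brightest cluster.

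The study sorted cells for CORIN, a membrane-bound serine protease made by the floor plate, to find surface markers of midbrain dopaminergic (mDA) progenitors. Embryonic stem cells (ESCs) of the 129SVEV strain, with GFP knocked in at Lmx1a, a gene of the mDA lineage, were differentiated in SFEBq culture, a floating aggregate culture without serum, and on day 9 their GFP+ cells were parted into CORIN+LMX1A::GFP+ cells, called ESC CORIN+ here, and CORIN-LMX1A::GFP+ cells, called ESC CORIN- here, so that both carry the reporter and were selected for it. VM CORIN+ and VM CORIN- cells came from the ventral midbrain (VM) of C57BL/6N fetuses at E11.5 and, as far as the labels say, were sorted for CORIN alone. Each population gave 1 Affymetrix whole-transcript array, and values are log2 signals. There was no replicate, so no difference below has an error or a test, and each one compares 2 arrays and not 2 conditions. Source also goes together with strain, culture, stage (day 9 against E11.5), the GFP knock-in and the GFP gate. These cannot be told apart.

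The array medians were 7.97 and 8.001 in ESC CORIN+ and ESC CORIN- cells and 8.03 and 7.97 in VM CORIN+ and VM CORIN- cells. Corin itself had a log2 signal of 13.10 in ESC CORIN+ cells against 11.13 in ESC CORIN- cells, and of 11.43 in VM CORIN+ cells against 7.28 in VM CORIN- cells, in the direction of the sort. ESC CORIN- cells thus had nearly the Corin signal of VM CORIN+ cells, and 14.4-fold that of VM CORIN- cells. The CORIN- populations of the 2 sources therefore do not match in Corin RNA. The labels call the ESC-derived cells neural progenitors, and 16 genes of neural progenitors had a median log2 signal of 10.87, 10.38, 11.28 and 11.26 in ESC CORIN+, ESC CORIN-, VM CORIN+ and VM CORIN- cells. Other cell types moved with the sort. All 12 macrophage markers and all 12 mesenchyme markers were higher in VM CORIN+ than in VM CORIN- cells, with summed linear signals of 17914 against 1276 and of 27177 against 6003, and 5 of 6 measured erythroid markers were at least 2-fold higher, with sums of 27198 against 8518. All 8 markers of GABAergic neurons were at least 2-fold lower in VM CORIN+ cells, with sums of 6120 against 18322. In the ESC-derived cells, all 8 pluripotency markers were lower in ESC CORIN+ than in ESC CORIN- cells, with sums of 925 against 4435, and all 12 mesenchyme markers were lower as well, with sums of 4636 against 8206. The part of these cells in the results below was not tested, and in bulk RNA fewer cells of a type and less RNA per cell cannot be told apart.

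When a dividing progenitor of the neural tube leaves the cell cycle, it starts a programme shared by most neuron types. Proneural basic helix-loop-helix proteins bind E-boxes and switch on further factors such as those of the EBF, NHLH, MYT1 and SCRT families, while the repressor REST, which silences neuronal genes in other cells through the RE1 element, is withdrawn. The new neuron builds neurofilaments and stable microtubules for its axon, changes its splicing through neuronal RNA-binding proteins, and lays down the machinery of vesicle release. In the midbrain floor plate, CORIN marks progenitors near the ventricle and is lost as neurons form.

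Promoter sequences were read from a set of RefSeq promoters (GRCm38.p6). In that set, 28 of the member genes had 57 promoter entries, each covering 250 bases before to 50 bases after a start site. The other members had no entry there and were not searched, which does not mean that RefSeq lacks their start sites. They were searched on both strands for the sites of the factors named above, since several of these factors are members themselves. The E-box CAGCTG, which reads the same on both strands, was present in 18 of the 57 entries (31.6%) from 13 of the 28 genes, against 16.3% of all 32851 promoters. The E-box CAGATG, or CATCTG on the other strand, was present in 13 entries (22.8%) from 7 genes, against 17.2% of all promoters. Entries of 1 gene can overlap and share a site, and the E-box matches came from 15 distinct CAGCTG and 10 distinct CAGATG sites. The EBF palindrome, TCCC and GGGA with 2 bases between them, was found in 1.75% of the entries and 0.904% of all promoters, the letters AAAGTTT or AAACTTT, bound by MYT1 proteins, in 3.51% and 4.74%, and TTCAGCACC or GGTGCTGAA, the left part of the RE1 element, in 1.75% and 0.371%. No match to one of these motifs is also a match to another. Such a match is a description of the letters and not of a bound site. The stretches shown here lie before the start sites of 8 members that return below, and capitals mark the motif.
Celf3, CAGCTG, chr3:94482585-94482650, plus strand: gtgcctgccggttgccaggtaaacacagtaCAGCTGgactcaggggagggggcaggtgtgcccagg
Elavl3, CAGCTG, chr9:22052031-22052096, minus strand: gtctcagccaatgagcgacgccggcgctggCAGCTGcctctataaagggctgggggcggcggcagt
Ina, CAGCTG, chr19:47014516-47014581, plus strand: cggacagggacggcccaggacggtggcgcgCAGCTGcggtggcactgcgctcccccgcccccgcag
Nhlh1, CAGATG, chr1:172057764-172057829, minus strand: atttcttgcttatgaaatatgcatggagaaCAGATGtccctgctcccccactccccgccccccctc
Stmn3, CAGATG, chr2:181314540-181314605, minus strand: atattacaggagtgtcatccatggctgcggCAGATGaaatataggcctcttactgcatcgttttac
Scg3, EBF palindrome, chr9:75684077-75684146, minus strand: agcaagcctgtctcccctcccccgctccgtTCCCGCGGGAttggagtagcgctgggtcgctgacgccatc
Myt1, AAAGTTT, chr2:181796138-181796204, plus strand: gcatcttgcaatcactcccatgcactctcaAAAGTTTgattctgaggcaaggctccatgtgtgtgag
Syn1, TTCAGCACC, chrX:20921112-20921168, minus strand: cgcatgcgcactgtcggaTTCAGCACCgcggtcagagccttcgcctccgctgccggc
The first base of the motif lay 43 bases before the start in Elavl3, 60 in Scg3, 75 in Stmn3, 107 in Celf3, 135 in Ina, 139 in Myt1, 203 in Nhlh1 and 232 in Syn1.

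Nearly all of the genes were lower in the CORIN+ cells of both pairs. In the ESC-derived pair all 42 were lower in ESC CORIN+ than in ESC CORIN- cells, where 49.4% of all genes were lower, and the median log2 difference was -0.62, or 1.54-fold, against 0.0021 over all genes. In the fetal pair 41 of 42 were lower in VM CORIN+ than in VM CORIN- cells, where 59.7% of all genes were lower, and the median was -0.57, or 1.481-fold, against -0.040 over all genes. 41 of 42 were lower in both pairs, against 31.3% of all genes. The differences were small for single genes and alike in direction. At 1.5-fold, 25 members were lower in the ESC-derived and 18 in the fetal pair, against 2.32% and 2.80% of all genes. At 2-fold there were 4 and 3, against 0.522% and 0.456% of all genes, and no member was 1.5-fold higher in either pair, against 1.52% and 5.92% of all genes. Among the 9970 genes at or above the median signal, as 41 of the 42 members are (all but Myt1l), 2.98% and 3.72% were 1.5-fold lower in the ESC-derived and the fetal pair. The 4 signals of a member also stood in 1 order in 40 of 42 genes, lowest in ESC CORIN+ cells, then ESC CORIN-, then VM CORIN+, and highest in VM CORIN- cells, against 12.5% of all genes. Cplx2 and Ebf2 were the exceptions.

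**Figure D1:**
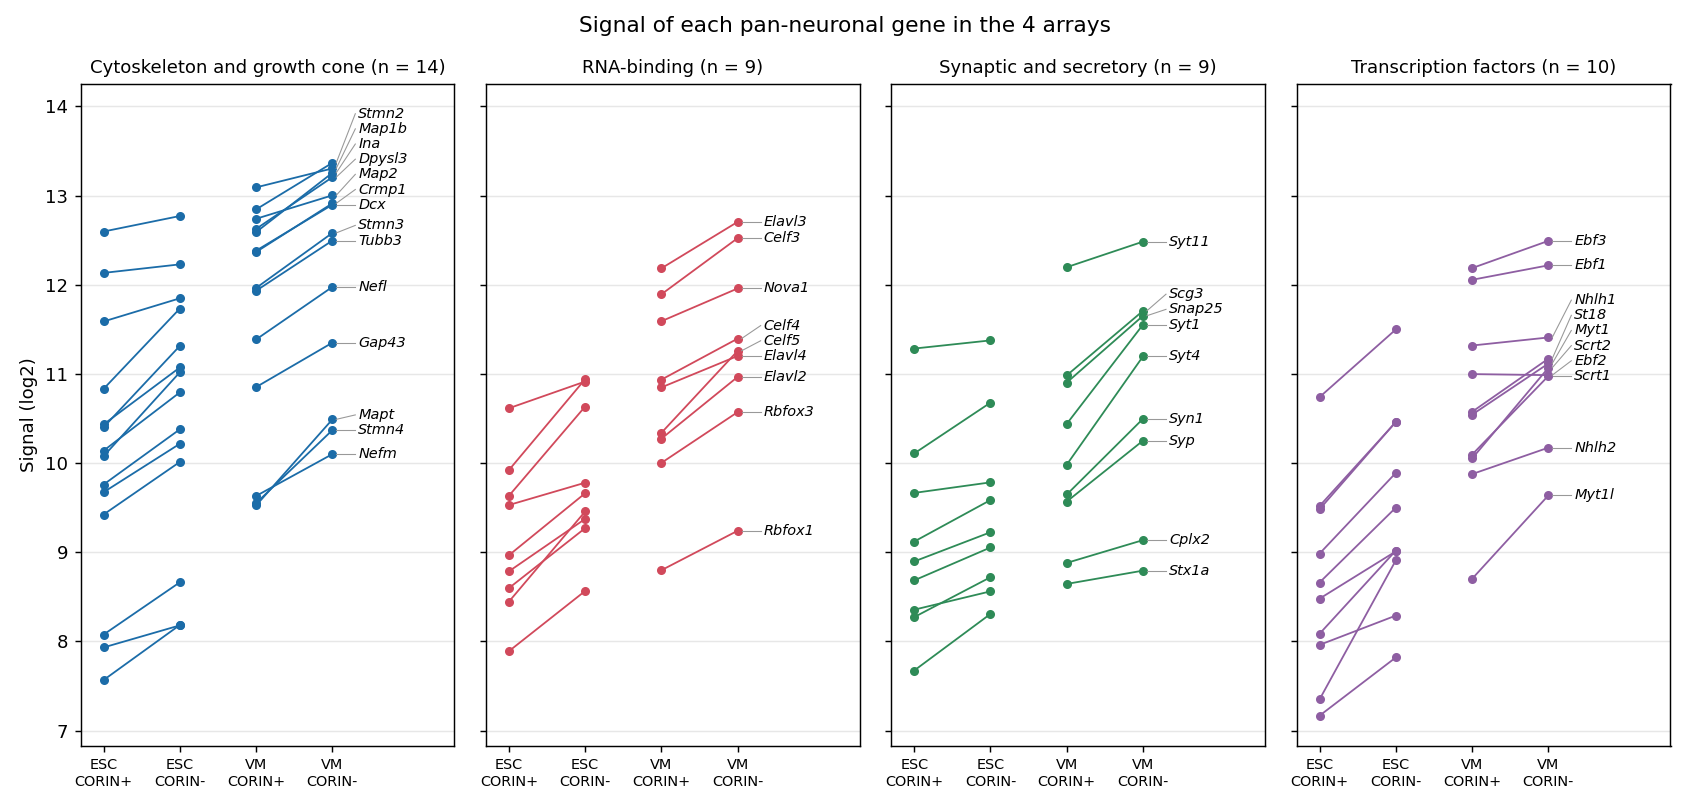
Log2 signal (vertical axis) of each of the 42 genes in the 4 arrays (horizontal axis), 1 panel for each class, with a line joining the CORIN+ and CORIN- cells of 1 source. Lines climb towards the CORIN- cells in both sources for all genes but Ebf2, which is level in the fetal pair at 10.998 and 10.99, and the fetal arrays lie above the ESC-derived arrays for all genes but Cplx2.

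The cytoskeletal genes were lower in CORIN+ cells in 14 of 14 cases in both pairs, with medians of -0.60 in the ESC-derived and -0.55 in the fetal pair. Tubb3, the neuronal beta-tubulin, had a log2 signal of 9.76 in ESC CORIN+ cells against 10.38 in ESC CORIN- cells, and of 11.93 in VM CORIN+ cells against 12.50 in VM CORIN- cells. Dcx, which encodes the microtubule-binding protein doublecortin of migrating neurons, stood at 10.43 against 11.07 in the ESC CORIN+ and ESC CORIN- cells and at 12.38 against 12.90 in the fetal ones. Both genes were thus about as far apart in culture as in the fetus, with differences of -0.62 and -0.56 for Tubb3 and of -0.64 and -0.52 for Dcx.

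The microtubule-associated proteins were uneven across the sort. Map2, the protein of dendritic microtubules, had 12.13 against 12.23 in ESC CORIN+ and ESC CORIN- cells and 12.74 against 13.003 in the fetal cells. Map1b, which is made early in growing axons, had 12.60 against 12.77 and 13.09 against 13.30 in the same order. Mapt, which encodes the axonal protein tau, had 7.93 in ESC CORIN+ cells, below the array median, against 8.18 in ESC CORIN- cells. In the fetal pair it had 9.52 against 10.49. Map2 and Map1b were therefore nearly level across the sort, at most 1.20-fold lower in CORIN+ cells, whereas Mapt was 1.19-fold lower in ESC CORIN+ cells and 1.95-fold lower in VM CORIN+ cells.

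The stathmins bind free tubulin, and the neuronal ones sit on the membranes of growth cones. Stmn2 had 10.83 against 11.73 in ESC CORIN+ and ESC CORIN- cells and 12.84 against 13.37 in fetal ones. For Stmn3, whose promoter stretch is shown above, the signals were 9.67 against 10.22 and 11.96 against 12.58. Stmn4 had 8.08 against 8.66 and 9.55 against 10.37. Stmn2 was lower in CORIN+ cells by more in culture (1.87-fold against 1.44-fold in the fetus) and Stmn4 by more in the fetus (1.77-fold against 1.502-fold in culture). A second, dim cluster of Stmn3 was nearly level in both pairs, with differences of 0.04 and -0.18.

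Neurofilament and internexin proteins fill the axon with intermediate filaments. Nefl, the light chain, had 10.08 against 11.02 in ESC CORIN+ and ESC CORIN- cells and 11.39 against 11.98 in fetal ones, and Nefm, the medium chain, had 7.57 against 8.18 and 9.63 against 10.10. Ina, which encodes alpha-internexin, had 10.14 against 10.79 and 12.59 against 13.26. Nefl was the most shifted gene of the class in culture, 1.92-fold lower in ESC CORIN+ cells. Ina was lower by nearly the same amount in both pairs, -0.65 and -0.66, and its second cluster gave -0.58 and -0.46.

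Gap43, a membrane protein of the growth cone, had 9.42 against 10.01 in ESC CORIN+ and ESC CORIN- cells and 10.85 against 11.35 in fetal ones. Crmp1 and Dpysl3, of the collapsin response mediators that bind tubulin and guide the growth cone, had 10.40 against 11.31 and 11.59 against 11.85 in the ESC-derived pair. In the fetal pair Crmp1 had 12.37 against 12.91 and Dpysl3 had 12.63 against 13.21. Crmp1 was 1.88-fold lower in ESC CORIN+ cells and Dpysl3 1.20-fold, while both were lower by a like amount in VM CORIN+ cells, 1.46-fold and 1.49-fold.

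**Figure D2:**
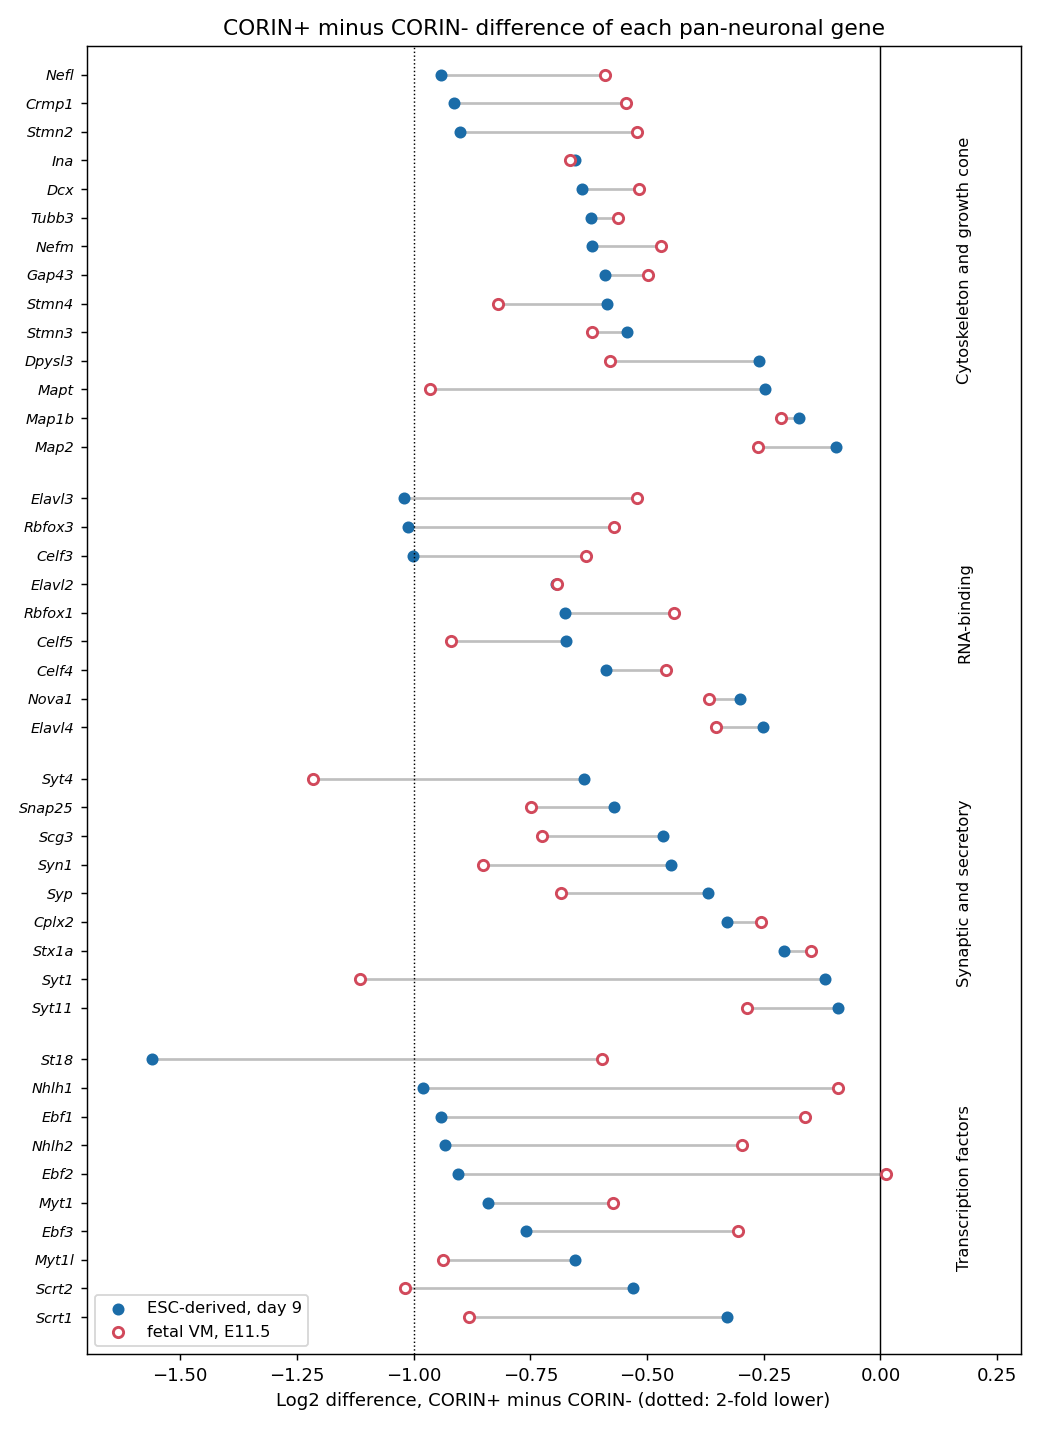
CORIN+ minus CORIN- log2 difference (horizontal axis) of each gene (rows), with filled points for the ESC-derived pair and open points for the fetal pair. All filled points lie left of 0, from -1.56 for St18 to -0.09 for Syt11, and the open points lie left of 0 except for Ebf2 at 0.01.

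Among the RNA-binding proteins, 9 of 9 were lower in CORIN+ cells in both pairs, with medians of -0.68 and -0.52 in the ESC-derived and the fetal pair. 3 of the 4 members that were 2-fold lower in the ESC-derived pair belong here. Elavl3, the HuC protein that stabilises neuronal mRNAs, had 9.92 against 10.94 in ESC CORIN+ and ESC CORIN- cells and 12.18 against 12.71 in fetal ones. Rbfox3, the NeuN antigen and a splicing regulator, had 8.44 against 9.46 and 10.002 against 10.57. Celf3, another splicing regulator, had 9.63 against 10.63 and 11.89 against 12.52. These genes were 2.03-fold, 2.02-fold and 2.003-fold lower in ESC CORIN+ cells, so that Celf3 only just reached the threshold, and they were 1.43-fold, 1.484-fold and 1.55-fold lower in VM CORIN+ cells. Elavl3 and Celf3 are also members with a CAGCTG E-box in the stretches shown above.

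The other Hu proteins were less alike. Elavl2, or HuB, had 8.97 against 9.66 in ESC CORIN+ and ESC CORIN- cells and 10.27 against 10.97 in fetal ones. Elavl4, or HuD, had 9.53 against 9.78 and 10.85 against 11.20. Elavl2 was 1.62-fold lower in both pairs, and Elavl4 was 1.19-fold lower in ESC CORIN+ and 1.28-fold lower in VM CORIN+ cells. Among the CELF proteins, which bind GU-rich RNA, Celf4 had 8.78 against 9.37 and 10.94 against 11.40, and Celf5 had 8.60 against 9.27 and 10.34 against 11.26. Celf5 had the greatest fetal difference of the class, 1.89-fold lower in VM CORIN+ cells. Rbfox1, a splicing factor of the same family as Rbfox3, had 7.89 against 8.56 and 8.80 against 9.24. Nova1, a splicing factor that binds YCAY sequences, had 10.61 against 10.91 and 11.59 against 11.96, and its second cluster gave differences of -0.18 and -0.44. Nova1 was thus among the least shifted of the class in both pairs, at 1.23-fold and 1.29-fold.

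The synaptic and secretory genes were lower in CORIN+ cells in 9 of 9 cases in both pairs, but with a smaller median in culture (-0.37) than in the fetus (-0.72). At 1.5-fold, 1 of 9 was lower in ESC CORIN+ cells and 6 of 9 in VM CORIN+ cells, against 2.32% and 2.8% of all genes. The larger shift was in the fetal pair for 7 of 9, a count not made over all genes. No test of this difference between the pairs is possible. Many synaptotagmins are calcium sensors of vesicle release. Syt4 had 7.67 in ESC CORIN+ cells, below the array median, against 8.31 in ESC CORIN- cells, and 9.98 against 11.20 in fetal ones. Syt1, the fast sensor of synaptic vesicles, had 9.66 against 9.78 and 10.44 against 11.55. Syt11, a member of the family that does not sense calcium, had 11.28 against 11.38 and 12.20 against 12.48. Syt4 and Syt1 were 2.32-fold and 2.16-fold lower in VM CORIN+ cells, the lowest of all 42 genes there, while Syt1 was 1.09-fold lower in ESC CORIN+ cells and Syt11 1.07-fold.

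Fusion of a vesicle needs SNARE proteins on both membranes. Snap25, on the plasma membrane, had 10.11 against 10.68 in ESC CORIN+ and ESC CORIN- cells and 10.90 against 11.65 in fetal ones. Stx1a, its partner syntaxin, had 8.35 against 8.56 and 8.64 against 8.79. Cplx2, a complexin that clamps the SNARE bundle, had 8.90 against 9.22 and 8.88 against 9.14. Snap25 was 1.485-fold lower in ESC CORIN+ and 1.68-fold lower in VM CORIN+ cells, whereas Stx1a and Cplx2 were at most 1.25-fold lower in either pair and were the least shifted of the class in the fetus, next to Syt11.

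The vesicle proteins Syn1 and Syp and the granule protein Scg3 followed Snap25. Syn1, which tethers vesicles to actin and whose stretch above carries the left part of an RE1 element, had 8.27 against 8.72 in ESC CORIN+ and ESC CORIN- cells and 9.65 against 10.50 in fetal ones. Syp, or synaptophysin, had 8.68 against 9.05 and 9.57 against 10.25. Scg3, a granin of dense-core vesicles with an EBF motif above, had 9.12 against 9.58 and 10.98 against 11.71. In ESC CORIN+ cells these genes were 1.36-fold, 1.29-fold and 1.38-fold lower, and in VM CORIN+ cells 1.80-fold, 1.61-fold and 1.65-fold.

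The transcription factors ran the other way. 10 of 10 were lower in ESC CORIN+ cells with the lowest class median, -0.87, and 9 of 10 were lower in VM CORIN+ cells with the highest, -0.44. At 1.5-fold there were 8 of 10 in culture and 4 of 10 in the fetus, against 2.32% and 2.8% of all genes. The larger shift was in culture for 7 of 10, again a count not made over all genes. St18, a zinc-finger protein of the MYT1 family, had 7.35 in ESC CORIN+ cells, below the array median, against 8.91 in ESC CORIN- cells, and 10.57 in VM CORIN+ cells against 11.17 in VM CORIN- cells. It was 2.95-fold lower in ESC CORIN+ cells, at rank 28 from the lowest of all 19938 genes, and 1.51-fold lower in VM CORIN+ cells.

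The EBF and NHLH factors act when progenitors leave the ventricular zone. Ebf1 had 9.52 against 10.46 in ESC CORIN+ and ESC CORIN- cells and 12.06 against 12.22 in fetal ones. Ebf2 had 8.98 against 9.89 and 10.998 against 10.986. Ebf3 had 10.74 against 11.498 and 12.19 against 12.49. All 3 were lower in the cultured CORIN+ cells, by 1.92-fold, 1.87-fold and 1.69-fold, and in the fetus Ebf1 and Ebf3 were 1.12-fold and 1.24-fold lower and Ebf2 was level. Nhlh1 and Nhlh2, basic helix-loop-helix proteins of newborn neurons, had the same shape. Nhlh1 had 9.48 against 10.46 in culture and 11.32 against 11.41 in the fetus, and Nhlh2 had 8.08 against 9.02 and 9.88 against 10.17. They were 1.97-fold and 1.91-fold lower in ESC CORIN+ cells and 1.06-fold and 1.23-fold lower in VM CORIN+ cells.

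Myt1l and the SCRT genes, factors that hold neurons in their fate by repressing other programmes, were shifted more in the fetus. Myt1l had 7.17 against 7.82 in ESC CORIN+ and ESC CORIN- cells, both below the array median, and 8.70 against 9.64 in fetal ones. Scrt1 had 7.96 against 8.29 and 10.09 against 10.98, and Scrt2 had 8.48 against 9.01 and 10.05 against 11.07. In ESC CORIN+ cells Scrt1 also lay just below the array median. Scrt2 was 2.02-fold lower in VM CORIN+ cells and 1.44-fold lower in ESC CORIN+ cells, and Scrt1 was 1.84-fold and 1.26-fold lower in the same order. Myt1, with the AAAGTTT letters above, was closer to St18, with 8.66 against 9.50 in culture and 10.54 against 11.12 in the fetus.

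Set side by side, the sizes of the 2 shifts had, across all 42 genes, a Pearson r of -0.09 and a Spearman rho of -0.06. Over all 19938 genes these were 0.07 and 0.12. The 2 pairs share no array, the genes are not independent replicates, and these values are given as a description. Of the genes, 22 had the larger shift in culture and 20 in the fetus, with 7 and 7 in the cytoskeletal class and 6 and 3 among the RNA-binding proteins. These counts were not made over all genes. Within the classes r was 0.20 over 14 cytoskeletal genes, 0.45 over 9 RNA-binding proteins, 0.48 over 9 synaptic genes and -0.45 over 10 transcription factors, where EBF and NHLH factors lie at 1 end and SCRT factors and Myt1l at the other.

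**Figure D3:**
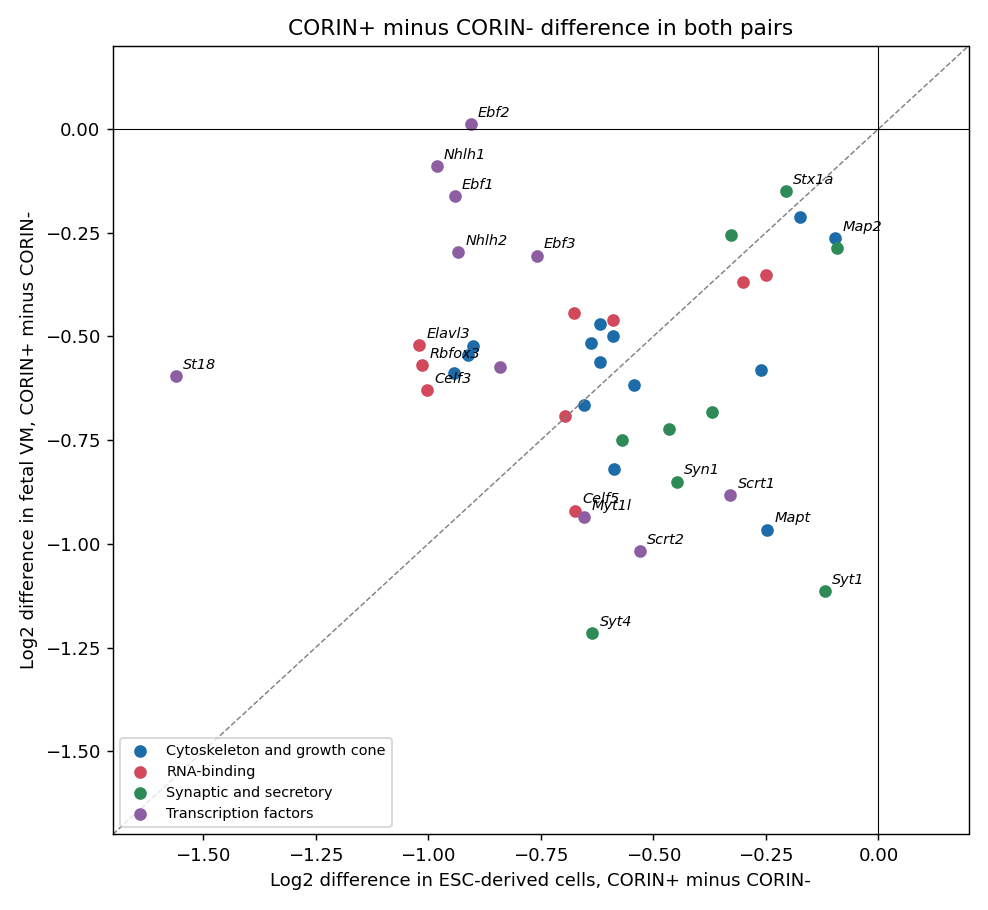
CORIN+ minus CORIN- log2 difference of each gene in the ESC-derived pair (horizontal axis) and in the fetal pair (vertical axis), coloured by class, with a dashed line where both are equal. Ebf1, Ebf2, Ebf3, Nhlh1, Nhlh2 and St18 lie above the line with larger shifts in culture, and Syt1, Syt4, Syn1, Mapt, Scrt1 and Scrt2 lie below it with larger shifts in the fetus.

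Within 9 families, widely expressed relatives were less low in CORIN+ cells than the members of the same family, and some were higher there. Neuronal genes of these families outside the members were not counted. The 9 families were chosen after the values had been seen, so the count describes them and tests nothing. No such count was made over all genes. All 18 neuronal members were lower in CORIN+ cells by more than every relative of their family in the ESC-derived and the fetal pair. Tubb5, a tubulin of most cells, had differences of -0.08 and -0.07 in the ESC-derived and the fetal pair, beside -0.62 and -0.56 for Tubb3. Tubb2a, a neuronal tubulin outside the members, had 0.88 and -0.36, so that it lay above Tubb5 in culture and below it in the fetus. Stmn1 had -0.10 and -0.16, Elavl1, the HuR protein of all tissues, had -0.16 and -0.10, and Map4 had -0.03 and -0.03. Tubb6, a tubulin of many tissues, was level in culture at -0.0089 and 1.01 higher in VM CORIN+ cells. Snap23, which serves secretion outside neurons, was higher in CORIN+ cells by 0.06 and 0.41, and Stx4a by 0.22 and 0.31, beside -0.57 and -0.75 for Snap25 and -0.21 and -0.15 for Stx1a, so that Stx4a lay further from 0 than Stx1a in both pairs. Rbfox2 was the lowest of the relatives in both pairs, with -0.31 and -0.38 beside -0.68 and -0.44 for Rbfox1. Over all 14 relatives the median was -0.0015 in the ESC-derived and 0.053 in the fetal pair, 7 being lower and 7 higher in each.

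Further genes of neurons and of neurogenesis came from lists written with earlier results in view. The cytoskeletal, RNA-binding and synaptic lists were uneven in direction in culture and nearly even in the fetus. The neurogenesis list was nearly even in direction in both pairs. Over all genes, 49.4% were lower in ESC CORIN+ and 59.7% in VM CORIN+ cells. Of 20 further cytoskeletal genes, 14 were lower in ESC CORIN+ cells with a median of -0.13, and 20 in VM CORIN+ cells with a median of -0.53. Of 10 further RNA-binding genes, 5 and 9 were lower with medians of 0.018 and -0.42. Of 21 further synaptic genes, 17 and 21 were lower with medians of -0.19 and -0.66, and of 20 further genes of neurogenesis, mostly transcription factors but with the Notch pathway genes Dll1, Dll3 and Mfng among them, 19 and 19 were lower with medians of -0.44 and -0.37. In the ESC-derived pair the medians of the members were therefore lower than those of the wider lists in each of the 4 classes, and in the fetal pair the medians of members and wider lists lay close together. The members, too, were chosen with earlier results of these data known.

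Single genes of these lists show both patterns. Srrm4, a splicing activator of neuronal microexons, had 8.71 in ESC CORIN+ cells against 10.01 in ESC CORIN- cells and 10.82 in VM CORIN+ cells against 11.32 in VM CORIN- cells. The proneural gene Neurog1 had 8.45 against 9.94 and 9.90 against 10.46, and Neurod4, a downstream factor, had 8.49 against 9.92 and 10.38 against 10.86, so that both were shifted more in culture, like the EBF and NHLH factors. Lhx1, a LIM-homeodomain factor, had 7.76 against 8.26 in culture and 10.51 against 12.04 in the fetus, and Lhx5 had 8.03 against 9.78 and 9.76 against 11.14. Sv2a, a vesicle membrane protein, was level in culture at 8.71 and 8.71 and stood at 9.50 against 10.51 in the fetus, much like Syt1. Cdk5r1, the activator of the neuronal kinase CDK5, had 8.28 against 8.56 and 9.73 against 10.77. Tubb2a went against the list in culture, with 10.55 against 9.67, and not in the fetus, with 11.15 against 11.51.

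**Figure D4:**
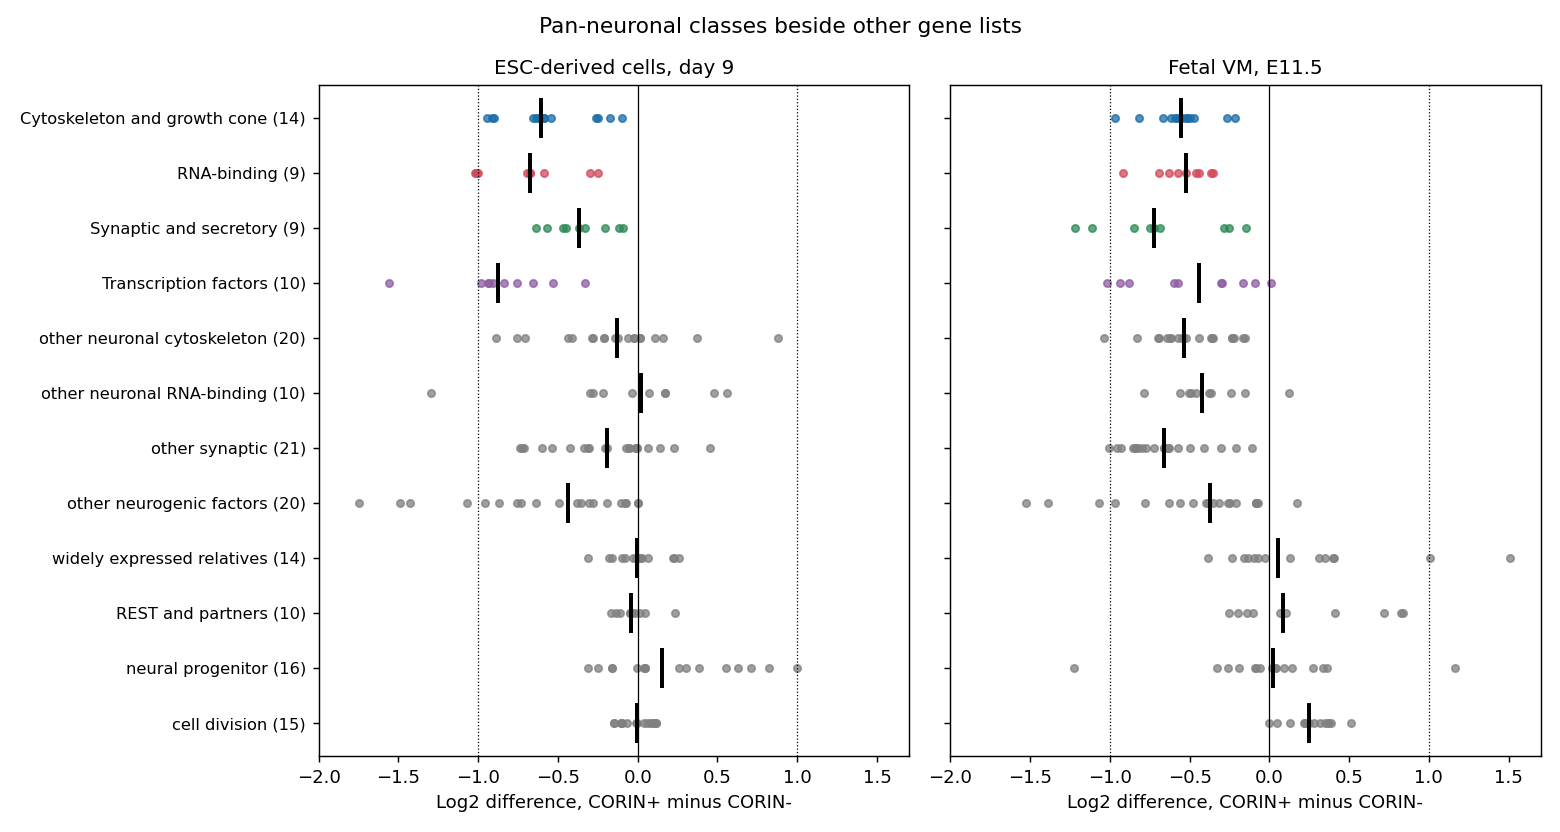
CORIN+ minus CORIN- log2 difference (horizontal axis) of single genes (points) in the 4 classes of members and in 8 other gene lists (rows, with the number of genes measured), for the ESC-derived pair on the left and the fetal pair on the right, where a bar marks the median. The member classes have medians from -0.87 to -0.37 on the left and from -0.72 to -0.44 on the right, and the median of the widely expressed relatives lies near 0 in both, with Vamp8 at 1.51 and Tubb6 at 1.01 on the right.

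The repressor and progenitor genes were measured beside them. For the counts below, 10075 of all 19938 genes were higher in ESC CORIN+ cells and 8031 in VM CORIN+ cells. Rest had 10.80 in ESC CORIN+ cells against 10.75 in ESC CORIN- cells, and 10.18 in VM CORIN+ cells against 9.34 in VM CORIN- cells. It was thus nearly level in culture, 0.05 apart, and 0.84 higher in VM CORIN+ cells. Ctdspl, a phosphatase that works with REST, was 0.23 and 0.82 higher in CORIN+ cells of the ESC-derived and the fetal pair. The 10 genes of REST and its partners together had medians of -0.041 and 0.086. Of these genes, 3 were higher and 7 lower in ESC CORIN+ cells, and 6 were higher and 4 lower in VM CORIN+ cells. The lowest in the fetal pair was Kdm1a at -0.25. Of 16 progenitor genes, 11 were higher in ESC CORIN+ cells with a median of 0.15 and 9 in VM CORIN+ cells with a median of 0.025. Hes5, a target of Notch signalling, was 0.83 higher in ESC CORIN+ cells and 0.04 higher in VM CORIN+ cells, and Slc1a3, the glutamate transporter of radial glia, was 0.999 and 1.16 higher. Fabp7, the fatty acid binding protein of radial glia, was 0.71 and -0.089 in the 2 pairs. Pax6, a homeodomain factor of progenitors, was lower in CORIN+ cells, with 6.52 in ESC CORIN+ against 6.67 in ESC CORIN- cells and with 9.79 in VM CORIN+ against 11.01 in VM CORIN- cells, a difference of -1.23 and the largest of the list in the fetus. Of 15 cell division genes, 7 were higher in ESC CORIN+ cells with a median of -0.0020, and 14 in VM CORIN+ cells with a median of 0.25. Cdk1, the kinase that starts mitosis, was 0.51 higher in VM CORIN+ cells and 0.08 higher in ESC CORIN+ cells.

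The same genes were also lower in ESC-derived than in fetal cells, and by more than across the sort. In CORIN+ cells, 41 of 42 were lower in ESC CORIN+ than in VM CORIN+ cells, against 46.2% of all genes, with a median log2 difference of -1.58 against 0.022 over all genes. 32 were at least 2-fold lower and 21 at least 3-fold lower, against 4.37% and 2.08% of all genes. In CORIN- cells, 41 of 42 were lower in ESC CORIN- than in VM CORIN- cells, against 52.2% of all genes, with a median of -1.63 against -0.015 over all genes. 33 were at least 2-fold lower and 23 at least 3-fold lower, against 3.52% and 1.46% of all genes. The same gene, Cplx2, was the exception in both, so that 41 of 42 were lower in both sorts, against 35.2% of all genes. The linear signals of the 42 genes summed to 41519 in ESC CORIN+ cells, 59113 in ESC CORIN- cells, 113596 in VM CORIN+ cells and 161252 in VM CORIN- cells, and 7, 1, 0 and 0 members lay below the median of their array in the same order. These comparisons use the arrays of the 2 pairs above and are not independent of them.

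In CORIN+ cells the class medians of the ESC-derived minus fetal difference were -1.77 for cytoskeletal genes, -1.56 for RNA-binding proteins, -0.88 for synaptic genes and -1.86 for transcription factors. In CORIN- cells they were -1.67, -1.42, -1.20 and -1.69. All 10 transcription factors were at least 2-fold lower in ESC CORIN+ than in VM CORIN+ cells, and St18 was the most distant member, 9.36-fold lower, followed by Ebf1 at 5.80-fold and Ina at 5.47-fold. In CORIN- cells Syt4 was the most distant, 7.41-fold lower in ESC CORIN- than in VM CORIN- cells, followed by Scrt1 at 6.44-fold and Ina at 5.51-fold.

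Among the least distant members were proteins of vesicle fusion and of microtubules. Cplx2 was 0.02 higher in ESC CORIN+ than in VM CORIN+ cells and 0.09 higher in ESC CORIN- than in VM CORIN- cells, and under quantile normalization it was -0.03 in the CORIN+ comparison. Stx1a was 1.22-fold and 1.17-fold lower in the ESC CORIN+ and ESC CORIN- cells, Map1b 1.41-fold and 1.45-fold, and Map2 1.52-fold and 1.71-fold. Snap25 was 1.74-fold and 1.97-fold lower. Of the 9 synaptic genes, 3 were at least 2-fold lower in the CORIN+ comparison and 6 in the CORIN- comparison.

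**Figure D5:**
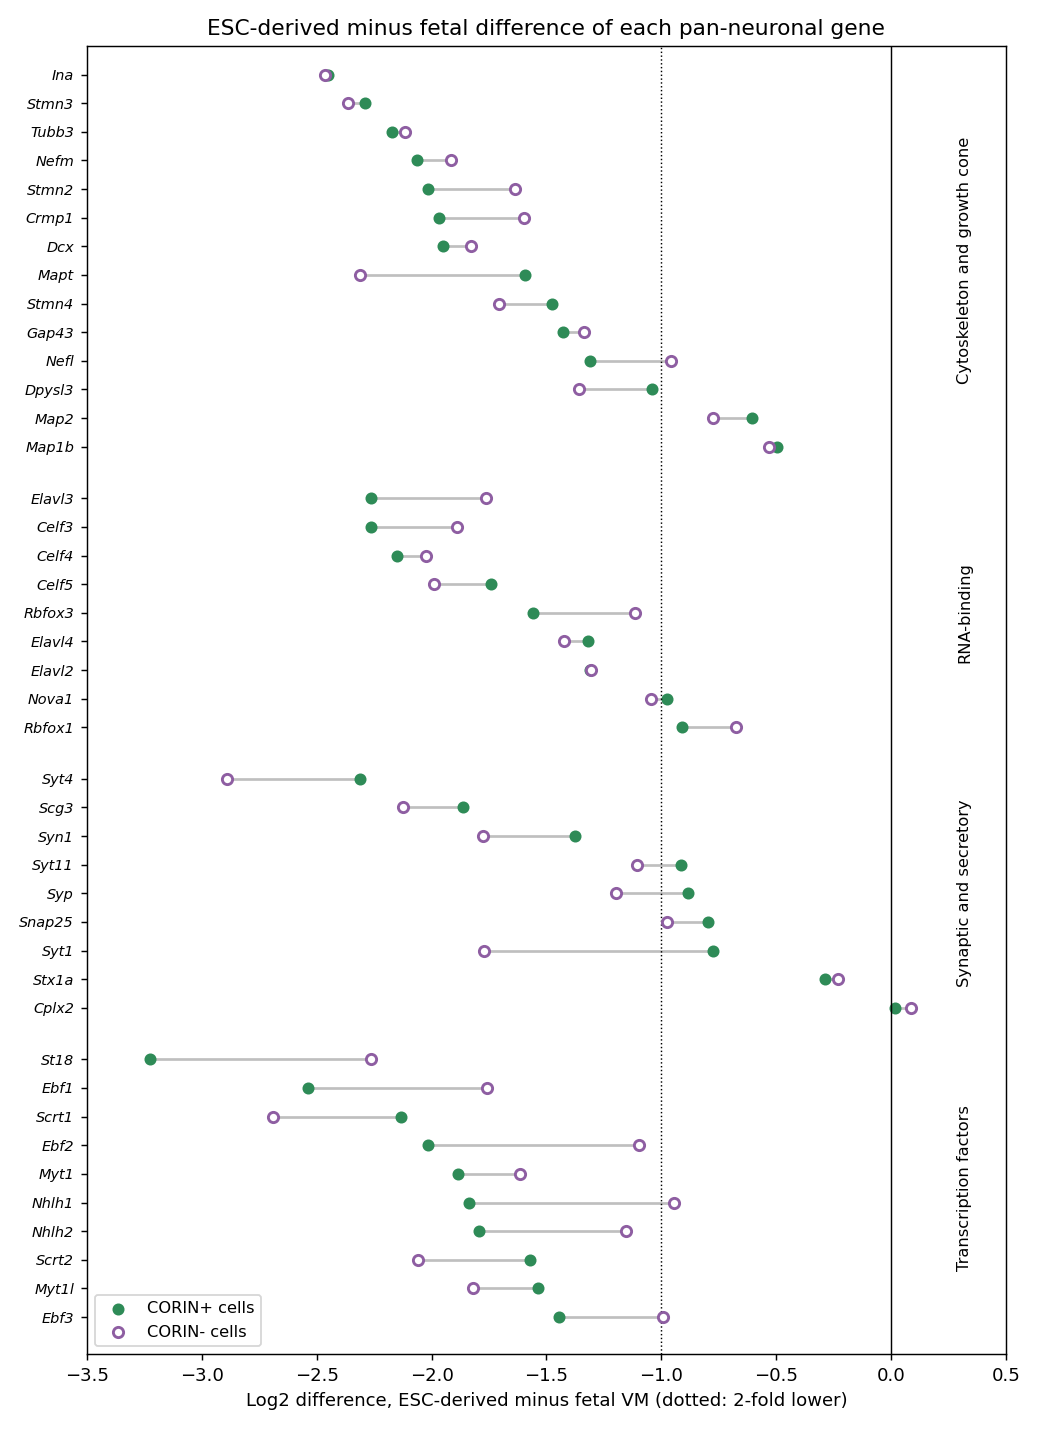
ESC-derived minus fetal log2 difference (horizontal axis) of each gene (rows), with filled points for CORIN+ cells and open points for CORIN- cells. All genes but Cplx2 lie left of 0, down to -3.23 for St18 in CORIN+ cells and -2.89 for Syt4 in CORIN- cells.

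The same 9 families, which use 10 of the 14 relatives and were chosen after the values had been seen, were set side by side between the sources. Their counts again describe these families and test nothing. In CORIN+ cells all 18 neuronal members of the 9 families were lower in the ESC-derived cells by more than every relative of their family, and in CORIN- cells 17 of 18 were, Rbfox1 at -0.68 beside Rbfox2 at -0.80 being the exception. The median of the 14 relatives was -0.056 in CORIN+ and 0.040 in CORIN- cells. Tubb6 was the highest of them, at 0.61 in CORIN+ and 1.62 in CORIN- cells, and Stx4a, at 0.44 and 0.53, lay further from 0 than Stx1a, at -0.29 and -0.23. Stmn1 was the lowest, at -0.91 in CORIN+ and -0.97 in CORIN- cells, beside -2.01 and -1.63 for Stmn2. Rest was 0.62 higher in ESC CORIN+ than in VM CORIN+ cells and 1.41 higher in ESC CORIN- than in VM CORIN- cells. Other cell types differed here as well. The summed signal of the macrophage markers was 1160 in ESC CORIN+ cells against 17914 in VM CORIN+ cells, and that of the GABAergic markers was 1964 in ESC CORIN- cells against 18322 in VM CORIN- cells, and their part in these differences was not tested.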

How the data were processed

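Total RNA of 4 sorted populations, 1 array each, was hybridised after whole-transcript labelling to Affymetrix mouse arrays. The values deposited by the authors form 1 table with the log2 signal of 28856 transcript clusters in every array. GeneSpring was used by the authors. The genome build, any filter, and how probes were summarized and arrays normalized were not given in the sources used here. Whether animals or cultures were pooled was not given either. Background values were not used, so that no cluster can be called above background. Every value column belonged to 1 of the 4 samples, with 0 left unmatched.

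The annotation of the array gives 1 gene symbol for 21789 clusters, several for 1621 and none for 5446. For 21698 clusters the symbol was brought up to date by gene identifier, which left 19938 genes, each represented by the cluster with the highest mean signal over the 4 arrays. Clusters with several symbols name no gene. Differences of log2 signals were taken as CORIN+ minus CORIN- within each source and as ESC-derived minus fetal within each sort, and genes at least 2-fold apart were counted beside the same count over all genes. With 1 array in each population no test was run, and the number of arrays limits the precision.

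All members are named with their signals. Of 18 context lists with 218 genes, 208 of them measured, at most 4 genes with the largest difference were named for each list, and the relatives of the 9 families and their comparison were chosen after their values had been seen. Members and lists were chosen with earlier results of these data known. The other lists cover glutamatergic and motor, dopaminergic, endothelial, neural crest and floor plate markers beside those described in the results. Alternatives were quantile normalization, centring on the median, filters at the 20th and 50th percentile of signal, 32 added to the linear signal, the mean over the clusters of a gene, and thresholds of 1.5-fold and 3-fold. The scaled median absolute deviation over all genes of a comparison set how far a value could differ before it counted as moved. The computation of differences was tested on simulated arrays. Promoters came from a set of RefSeq promoters for GRCm38.p6 that did not cover all members. The software was Python 3.11.15 with pandas 2.3.3, numpy 2.4.6, matplotlib 3.10.9 and scipy 1.17.1.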

Additional observations from a re-analysis of the deposited data

Results flagged for a closer look

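Among the members and the genes named from 7 other lists, the CORIN+ minus CORIN- log2 difference had opposite signs in the ESC-derived and the fetal pair for 7 genes. The lists are those of other neuronal genes, of neurogenesis, of widely expressed relatives, of REST and its partners and of progenitor genes. Counted over whole lists, the signs were opposite for 1 of the 42 members and 29 of the 111 measured genes of the other lists, 21 of them higher in ESC CORIN+ and lower in VM CORIN+ cells, against 46.4% of all genes. Cell division genes and markers of other cell types were not screened. With 1 array for each population the difference between the pairs was not tested. Among the members, Ebf2 was -0.91 in the ESC-derived and 0.012 in the fetal pair. Tubb2a, another neuronal tubulin, was 0.88 in the ESC-derived and -0.36 in the fetal pair. Khdrbs2, a neuronal splicing factor, was 0.56 and -0.51 in the same order. Tubb6, a tubulin of many tissues, was -0.0089 and 1.01. The phosphatases Ctdsp1 and Ctdsp2, which work with REST, were -0.17 and 0.72, and -0.047 and 0.41. Fabp7, the fatty acid binding protein of radial glia, was 0.71 and -0.089.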

How the results depend on the processing

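No paired analysis was possible because each population has 1 array and no test was made. Both signal filters removed no member, so they could not change a value of the members. Under quantile normalization, centring, 32 added to the linear signal and the mean over clusters, all 42 members stayed lower in ESC CORIN+ cells and 41 of 42 in VM CORIN+ cells. Across these settings the median of the members lay between -0.62 and -0.56 in the ESC-derived pair, between -0.57 and -0.53 in the fetal one, -1.62 and -1.48 for CORIN+ cells and -1.63 and -1.61 for CORIN- cells of the 2 sources. Cplx2 alone changed sign, in the CORIN+ cells of the 2 sources under quantile normalization (-0.03). With 32 added to the linear signal, 1 member was at least 2-fold lower in the ESC-derived pair in place of 4, and St18 was -1.39 there. At 1.5-fold the counts were 25 in the ESC-derived and 18 in the fetal pair, and at 3-fold 0 and 0, with 21 in the CORIN+ cells of the 2 sources. The mean over both clusters moved Stmn3 to -0.25 and -0.40 in the ESC-derived and the fetal pair and to -1.15 and -1.29 in CORIN+ and CORIN- cells of the 2 sources. Of the 4 genes counted at 2-fold in the ESC-derived pair, Elavl3, Rbfox3 and Celf3 were at most 2.03-fold lower. The floor of the arrays was not measured here, and 7 members lie below the array median in ESC CORIN+ cells. Of these, Mapt, Syt4, Scrt1 and Myt1l had the larger shift in the fetus, and Nefm, Rbfox1 and St18 had it in culture. Whether low signal changed their differences in culture was not tested.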

Other observations

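Markers of single neuron types did not all follow the pan-neuronal genes. Slc17a6, the vesicular glutamate transporter of excitatory neurons, had 9.02 in ESC CORIN+ cells against 9.94 in ESC CORIN- cells and 10.997 in VM CORIN+ cells against 11.38 in VM CORIN- cells. Isl1, a factor of motor neurons, had 7.31 against 7.95 in the ESC-derived pair and 8.64 against 9.70 in the fetal pair. Th, the enzyme that starts dopamine synthesis, stood the other way, with 11.10 against 10.49 and 10.89 against 10.02 in the same order, and Nr4a2, a factor of postmitotic mDA neurons, had 10.62 against 10.91 and 12.30 against 11.66. Of the 8 dopaminergic markers, 4 were higher and 4 lower in the CORIN+ cells of each pair, with medians of -0.015 in the ESC-derived and -0.0061 in the fetal pair. Over all genes, 49.4% were lower in ESC CORIN+ and 59.7% in VM CORIN+ cells. Sox14, a factor of GABAergic midbrain neurons, had 9.06 in VM CORIN+ cells against 10.93 in VM CORIN- cells, and 7.66 and 7.54 in ESC CORIN+ and ESC CORIN- cells, below the median of both arrays. Of the 8 GABAergic markers, 5 were lower and 3 higher in ESC CORIN+ than in ESC CORIN- cells, with a median of -0.087. The lowest of them was Tal2 at -0.98.

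The remaining marker lists were mixed. Their counts stand beside 49.4% of all genes lower in ESC CORIN+ and 59.7% in VM CORIN+ cells. Of 7 measured markers of glutamatergic and motor neurons, 6 were lower in the CORIN+ cells of each pair, with medians of -0.37 in ESC-derived and -0.21 in fetal cells. Of 8 endothelial markers, 7 were lower in ESC CORIN+ than in ESC CORIN- cells (median -0.41) and all 8 were higher in VM CORIN+ than in VM CORIN- cells (median 0.50). Of 5 measured neural crest markers, 5 were lower in ESC CORIN+ cells and 3 in VM CORIN+ cells, with medians of -0.17 and -0.036. Of 10 floor plate markers, 9 were higher in ESC CORIN+ cells and 10 in VM CORIN+ cells, with medians of 0.50 and 0.64, where Corin itself is 1 of the 10.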
